A study of Homo sapiens with 4 samples.

Results

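The human mitochondrial ribosome (mitoribosome) and the factors that work with it were examined in HepG2 cells, a human liver tumour line labelled here as hepatoblastoma. The genes were chosen by name. They comprise the MRPL and MRPS genes, which encode proteins of the large and the small subunit of the mitoribosome, the subunit gene DAP3, and 15 named factors of mitochondrial translation, transcription and RNA binding. Of 49 matching names in the authors' deposited table, the pseudogene MRPL40P1 was left out and the antisense transcript MRPL23-AS1 was kept apart. The remaining 47 protein-coding genes are 28 MRPL genes, 11 MRPS genes, 4 translation factors and 4 transcription factors, of 8727 genes in the table in all.

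Polyadenylated RNA was sequenced from 2 libraries of HepG2 cells given the solvent DMSO and 2 libraries of HepG2 cells treated with isoginkgetin at 20 µM over 24 h. Isoginkgetin, a biflavonoid from plants, is known to inhibit the splicing of pre-mRNA, and the series title points to autophagic death of liver cancer cells. All cells belong to this 1 tumour line, no genotype other than that of the line is given, and whether the replicates are separate cultures is not said. The p-values therefore cover the spread among these libraries alone, and that spread may be technical. The authors' deposited table gives a mean normalized count over all libraries, a log2 fold change, the standard error (SE) of that change, a p-value and an adjusted p for each gene. Membership in it requires an adjusted p under 0.05. Genes outside it have no value here, and their direction is unknown. Values per library are not analysed here, and the total count of each library is unknown. A gene is called higher where its log2 fold change is above 0 and lower where it is below. Changes are taken to be isoginkgetin relative to DMSO, an order that the table does not name. The reverse order would turn every direction.

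The mitoribosome sits in the mitochondrial matrix and translates the few messages of mitochondrial DNA, all of which encode membrane subunits of the respiratory chain and ATP synthase. Its RNAs are transcribed inside the organelle by the polymerase POLRMT with TFAM and TFB2M. Its proteins and factors are encoded in the nucleus, made in the cytosol and imported. In liver cells, which are rich in mitochondria, both genomes must supply parts of the same complexes.

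Promoters of a few genes are shown first, because motifs of the nuclear respiratory factors are a classical feature of this gene group. They are hand-picked examples that each hold a match, and several strongly changed genes are not among them. Each line gives the 180 bases before the annotated start, 5′ to 3′ on the gene's strand, from RefSeq on GRCh38.p14. Capitals mark matches lying wholly within the line, on either strand, to GCGCATGC (the core bound by NRF1), CCGGAAG (bound by ETS factors such as GABP), AAGATGGCG (YY1) or TGATGNAAT (the composite site of C/EBP and ATF factors). In the longer windows used below, 24 of the 43 genes with a promoter hold an NRF1, ETS or YY1 match. TFB2M (chr1:246566262-246566441, minus strand) and TFB1M (chr6:155314485-155314664, minus strand) are paralogs that moved in opposite directions. POLRMT (chr19:633538-633717, minus strand) and MRPL17 (chr11:6683341-6683520, minus strand) carry repeated NRF1 matches. MRPL52 (chr14:22829707-22829886, plus strand) carries a pair of YY1 matches, and MRPL55 (chr1:228109300-228109479, minus strand) is the 1 gene with the composite site.
TFB2M: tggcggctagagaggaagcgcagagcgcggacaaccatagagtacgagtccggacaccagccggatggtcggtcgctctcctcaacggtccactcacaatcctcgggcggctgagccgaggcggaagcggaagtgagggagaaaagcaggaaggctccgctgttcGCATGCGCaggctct
TFB1M: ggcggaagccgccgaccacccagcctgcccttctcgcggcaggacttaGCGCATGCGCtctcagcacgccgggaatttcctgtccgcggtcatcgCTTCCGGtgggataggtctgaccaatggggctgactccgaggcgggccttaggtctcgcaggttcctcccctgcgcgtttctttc
POLRMT: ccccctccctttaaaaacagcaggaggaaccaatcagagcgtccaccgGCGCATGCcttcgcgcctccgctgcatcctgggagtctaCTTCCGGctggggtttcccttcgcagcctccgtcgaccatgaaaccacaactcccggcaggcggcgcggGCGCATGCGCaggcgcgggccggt
MRPL17: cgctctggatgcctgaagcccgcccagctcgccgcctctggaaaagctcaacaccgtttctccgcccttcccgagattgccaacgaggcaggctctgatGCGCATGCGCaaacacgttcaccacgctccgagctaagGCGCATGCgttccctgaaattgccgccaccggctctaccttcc
MRPL52: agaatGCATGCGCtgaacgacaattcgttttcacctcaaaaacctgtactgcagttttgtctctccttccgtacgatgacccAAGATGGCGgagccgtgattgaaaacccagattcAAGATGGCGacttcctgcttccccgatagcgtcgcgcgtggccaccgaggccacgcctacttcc
MRPL55: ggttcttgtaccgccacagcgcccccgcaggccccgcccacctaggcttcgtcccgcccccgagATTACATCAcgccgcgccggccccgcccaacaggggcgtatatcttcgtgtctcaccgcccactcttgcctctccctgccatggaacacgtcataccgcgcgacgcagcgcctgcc

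Most of the mitoribosome genes in the table were higher after isoginkgetin, by small amounts. Of the 47 genes, 39 were higher and 8 lower in the authors' deposited table. Their log2 fold changes had a median of 0.39 and ran from −0.87 to 1.32 in the authors' deposited table. Only TFB2M changed by at least 2-fold, against 31.4% of all genes in the authors' deposited table and 19.4% of its 6535 genes within the 47 genes' range of mean counts. Across that table as a whole 51.5% of genes were higher, and the median log2 fold change was 0.21. Within that range of counts 49.6% of genes in the authors' deposited table were higher and the median was −0.18, so the sign of the background depends on the counts taken. Presence in the table is what chose these genes, so these counts describe them and test nothing. The names searched number 93, the protein-coding MRPL and MRPS names of RefSeq with DAP3 and the 15 named factors. The 47 genes in the table are 50.5% of them. Other names of these genes and factors were not searched. A gene held under such a name would be counted as outside the authors' deposited table. Of the 20024 genes that the authors' adjusted p-values cover, 43.6% are in the table, 22.4% as higher and 21.1% as lower.

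Most large subunit genes of the table were higher, within a narrow range. Of 49 MRPL genes by current RefSeq name, 28 are in the authors' deposited table under that name, 25 higher and 3 lower, and their median log2 fold change was 0.39. The higher ones ran from 0.25 to 0.87 in the authors' deposited table, and 7 of the 28 changed by at least 1.5-fold. Of 29 small subunit genes (the MRPS names and DAP3), 11 are in the authors' deposited table, 8 higher and 3 lower, with a median of 0.42 and a range from −0.87 to 0.85. In this subunit 7 of the 11 changed by at least 1.5-fold (63.6%, against 25% of the large subunit). The share was 60.1% over all genes of the authors' deposited table. Within the 47 genes' range of mean counts it was 51.1%, and none of these shares was tested. The standard deviation among genes was 0.34 in the large and 0.60 in the small subunit, and the median SE of a gene was 0.12 and 0.09. The threshold keeps out values near 0, which widens the spread among genes on both sides of 0. The spread therefore cannot be set against the SE. No test of the difference between the subunits was made.

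**Figure D1:**
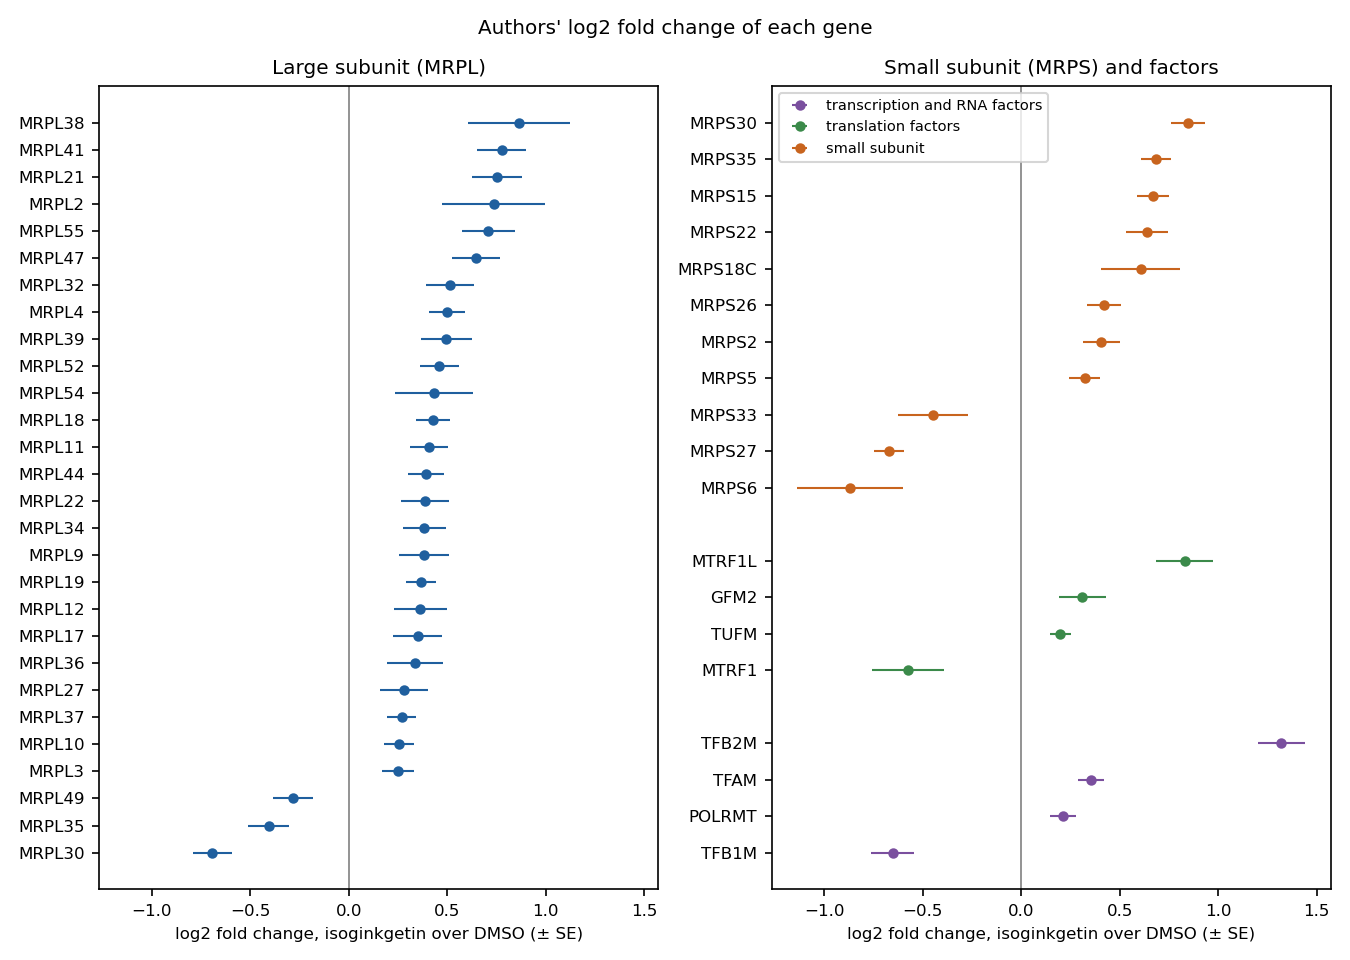
Log2 fold change (x axis, isoginkgetin over DMSO) of each of the 47 genes in the authors' deposited table, with bars of 1 SE, for the large subunit (left) and for the small subunit, translation factors and transcription factors (right). The 3 lower MRPL genes end at −0.69, and the small subunit splits into 8 genes at 0.32 or more and 3 at −0.45 or less.

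Among the large subunit genes with the strongest increase in the authors' deposited table, MRPL38 had a log2 fold change of 0.87 (SE 0.26, mean normalized count 149, adjusted p 0.000881) and MRPL41 of 0.78 (SE 0.12, mean 815, adjusted p 9.19e-10). Both encode proteins that bacterial ribosomes lack. MRPL21, the counterpart of bacterial L21, stood at 0.75 (SE 0.13, mean 697, adjusted p 6.18e-09) by the authors' deposited table. MRPL2, the counterpart of the L2 protein close to the peptidyl transferase centre, stood there at 0.74, but with an SE of 0.26 at a mean count of 145 (adjusted p 0.00518). MRPL38 and MRPL2 thus rest on the lowest counts among the MRPL genes, and each is within 1 SE of the other genes named here. MRPL55 (0.71, SE 0.13) and MRPL47 (0.65, SE 0.12), the counterpart of L29 at the tunnel exit, followed in the authors' deposited table.

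The next stretch was a dense middle. In the authors' deposited table MRPL32 (0.51), MRPL4 (0.50), MRPL39 (0.50), MRPL52 (0.46), MRPL54 (0.43), MRPL18 (0.43), MRPL11 (0.41), MRPL44 (0.39), MRPL22 (0.39), MRPL34 (0.38), MRPL9 (0.38), MRPL19 (0.37), MRPL12 (0.36), MRPL17 (0.35) and MRPL36 (0.34) lay within less than 0.2 of each other on the log2 scale. Neighbours in that order are closer than their SEs. MRPL4 and MRPL22 are counterparts of the proteins that line the exit tunnel, and MRPL44 carries a fold related to RNase III. The stalk that recruits translation factors was represented by MRPL12 (0.36, SE 0.14), by its anchor MRPL10 (0.25, SE 0.08) and by MRPL11 at its base (0.41, SE 0.10) in the authors' deposited table, values that overlap within their SEs.

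At the lower end of the increases the authors' deposited table lists MRPL27 at 0.28 (SE 0.12, mean count 765, adjusted p 0.0409), MRPL37 at 0.27 (SE 0.07, mean 3005, adjusted p 0.000700), MRPL10 at 0.25 (SE 0.08, mean 2319, adjusted p 0.00251) and MRPL3 at 0.25 (SE 0.08, mean 2292, adjusted p 0.00631). MRPL3 is the counterpart of a core protein of the peptidyl transferase region, and MRPL27 of a protein that reaches into it. The genes just inside the threshold in the authors' deposited table were MRPL54 (adjusted p 0.0434) and MRPL27 (0.0409). Genes just outside it have no values here.

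The 3 exceptions in the large subunit were MRPL30, MRPL35 and MRPL49. In the authors' deposited table MRPL30 was at −0.69 (SE 0.10, mean count 1383, adjusted p 7.19e-12), MRPL35 at −0.41 (SE 0.11, mean 997, adjusted p 0.000298) and MRPL49 at −0.28 (SE 0.10, mean 1149, adjusted p 0.0115). MRPL30 and MRPL35 are counterparts of bacterial L30 and L35, and MRPL49 is a mitochondrial addition. Their counts are above those of MRPL38 and MRPL2, and their SEs are at or below the median of the subunit.

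Of the small subunit genes in the table, 8 were higher, led by MRPS30, MRPS35, MRPS15 and MRPS22. In the authors' deposited table MRPS30 stood at 0.85 (SE 0.09, mean count 1639, adjusted p 6.08e-22), MRPS35 at 0.68 (SE 0.08, mean 2665, adjusted p 2.82e-18), MRPS15 at 0.67 (SE 0.08, mean 2195, adjusted p 3.33e-16) and MRPS22 at 0.64 (SE 0.11, mean 994, adjusted p 6.41e-09). MRPS30 bears a small subunit name but was placed in the large subunit by structures, where it is called mL65. With MRPS30 moved to the large subunit, and AURKAIP1 (0.59), which encodes a small subunit protein under another name, added from the authors' deposited table, the counts were 26 higher and 3 lower in the large and 8 higher and 3 lower in the small subunit. MRPS18C (0.61, SE 0.20), MRPS26 (0.42, SE 0.09), MRPS2 (0.41, SE 0.10) and MRPS5 (0.32, SE 0.08) complete the higher genes in the authors' deposited table. MRPS2 and MRPS5 are counterparts of proteins on the messenger path of the bacterial small subunit.

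On the lower side of the small subunit, MRPS27, a protein with pentatricopeptide repeats that binds RNA, was at −0.67 in the authors' deposited table (SE 0.08, mean count 2286, adjusted p 9.61e-18). MRPS6 was at −0.87 there, with an SE of 0.27 at a mean count of 141 (adjusted p 0.00116), and MRPS33 at −0.45 (SE 0.18, mean 330, adjusted p 0.0202). MRPS18A and MRPS18B, the paralogs of MRPS18C, are outside the table. In bacteria the counterparts of MRPS6 and MRPS18C form a pair that binds the platform next to S15. By the authors' deposited table MRPS18C stood 1.48 (SE of the difference 0.34) and MRPS15 stood 1.54 (SE of the difference 0.28) above MRPS6 on the log2 scale. These SEs take the genes as independent, and the MRPS6 pairs were not among those planned. Genes that pass the threshold on opposite sides of 0 must differ by more than their SEs, so these differences test nothing. MRPS6 shares exonic bases with the coding gene SLC5A3 on the same strand, and MRPS18C shares 1956 with ABRAXAS1 on the opposite strand. How reads shared by genes were counted is not given in the sources used here.

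Among the subunit genes in the table, those for proteins with a bacterial counterpart and those for mitochondrial additions both had more higher than lower members. Going by the unified ribosomal protein names that RefSeq lists, 25 of the 39 subunit genes have a bacterial counterpart, and 22 of them were higher and 3 lower in the authors' deposited table (median log2 fold change 0.38). Of the 14 mitochondria-specific genes 11 were higher and 3 lower in the authors' deposited table, with a median of 0.45. In the large subunit 20 of 30 genes with a bacterial counterpart (66.7%) and 8 of 19 mitochondria-specific genes (42.1%) are in the authors' deposited table. In the small subunit the shares were 5 of 14 (35.7%) and 6 of 13 (46.2%), leaving out MRPS24 and MRPS28, for which RefSeq lists no such name. Subunits follow the MRPL and MRPS names here. The 6 and the 13 thus include MRPS30 (mL65), and the 13 also MRPS18A (mL66), both large subunit proteins by their unified names. Over all 20024 genes tested by the authors the share was 43.6%, and no test was made of these shares.

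The paralogous release factors stood on opposite sides of 0. In the authors' deposited table MTRF1L, the release factor for the standard mitochondrial stop codons, was at 0.83 (SE 0.14, mean count 511, adjusted p 2.21e-08), whereas its paralog MTRF1 was at −0.58 (SE 0.18, mean 314, adjusted p 0.00251). Their difference was 1.40 (SE 0.23, taking the genes as independent) from the values in the authors' deposited table. Both passed the threshold on opposite sides of 0, so the difference describes them and tests nothing. TUFM, the elongation factor that brings aminoacyl-tRNA to the ribosome, was at 0.20 (SE 0.05, mean 9436, adjusted p 0.000893) and GFM2, the G factor that splits ribosomes after termination, at 0.31 (SE 0.12, mean 842, adjusted p 0.0190) by the authors' deposited table. The initiation factors MTIF2 and MTIF3, GFM1, the translocase paralog of GFM2, the recycling factor MRRF and the TUFM exchange factor TSFM are outside the table.

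Among the transcription factors of the organelle, the paralogs TFB2M and TFB1M stood far apart. In the authors' deposited table TFB2M, the initiation factor that melts the mitochondrial promoter for POLRMT, was at 1.32 (SE 0.12, mean count 838, adjusted p 4.62e-27), a 2.50-fold increase. Its paralog TFB1M, which methylates the small ribosomal RNA of the mitoribosome, was at −0.65 (SE 0.11, mean 1218, adjusted p 6.79e-09) by the authors' deposited table. The pair thus differed by 1.97 (SE 0.16, taking the genes as independent) in the authors' deposited table, which again describes genes that passed the threshold and tests nothing. TFAM, which bends and packages mitochondrial DNA, stood at 0.35 (SE 0.07, adjusted p 4.48e-07) and POLRMT at 0.21 (SE 0.07, adjusted p 0.00314) by the authors' deposited table. When fold changes were centred on the whole table's median of 0.21, TUFM and POLRMT fell to the lower side and the other 45 genes kept their direction. LRPPRC, which stabilises mitochondrial messages, is outside the table. The name MTERF is also absent from it, and other names of that gene were not searched.

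**Figure D2:**
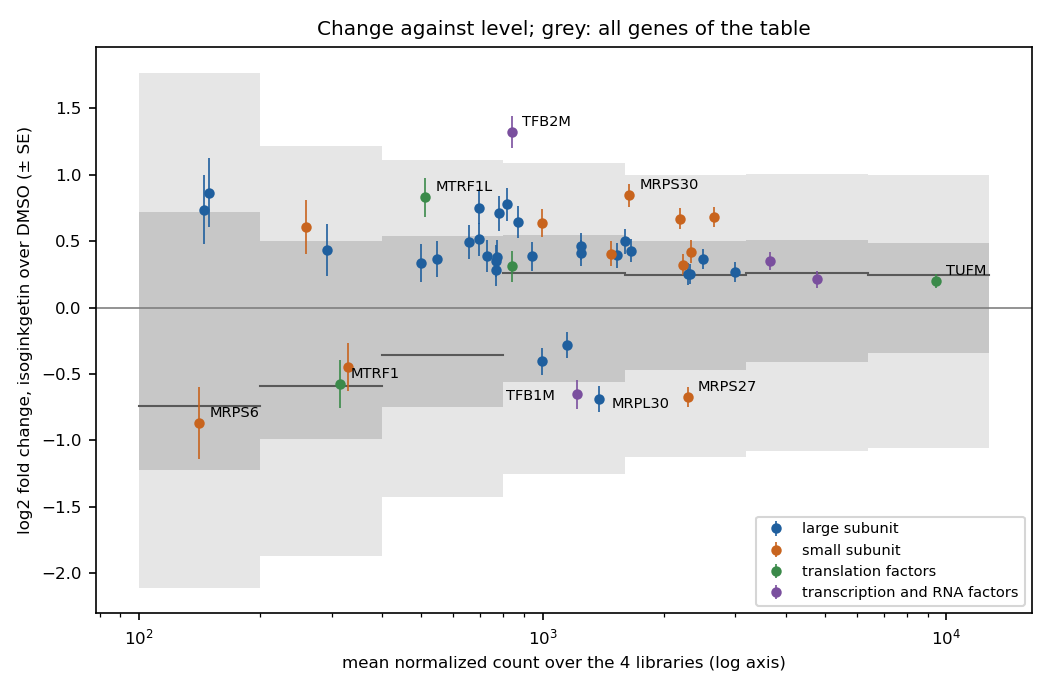
Log2 fold change (y axis, bars of 1 SE) of the 47 genes against their mean normalized count over the 4 libraries (x axis, log scale), by class, with grey bands for the central 50% and 90% of all genes of the authors' deposited table and a line for their median in each range of counts. TFB2M at 1.32 lies above the wider band, and the other genes lie within it.

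Among genes past the threshold, those with lower counts had larger changes and larger SEs. A gene with a large SE passes only with a large change, so this relation tests nothing. Across the 47 genes of the authors' deposited table, Spearman's rho between the mean normalized count and the absolute log2 fold change was −0.41, and it was −0.57 across all 8727 genes, with the table's threshold shared by both measures. Genes under a mean count of 1000 were higher in 21 and lower in 4 cases in the authors' deposited table, and those at 1000 or more in 18 and 4 cases. The median SE was 0.13 in the first and 0.08 in the second group. Among all genes of the authors' deposited table, the share that was higher was 35.6% at a mean count of 100 to 200 and 59.7% at 3200 to 6400. The mean counts of the 47 genes ran from 141 to 9436 in the authors' deposited table.

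Several of these genes have close or overlapping neighbours. The library kit does not mark strand, so reads lying within exonic bases shared on opposite strands cannot be told apart by strand. Where the overlap is on the same strand, strand would not separate them either. Reads outside the shared bases are not affected. In GENCODE 29, 24 of the 47 genes share exonic bases with another gene and 10 of them with a gene that is in the authors' deposited table. MRPS27 shares 190 exonic bases with PTCD2 on the opposite strand, which encodes a mitochondrial RNA-binding protein, and both were lower in the authors' deposited table (−0.67 and −0.71). MRPL49 overlaps FAU over 282 bases and SYVN1 over 356 bases, and both of these were higher there (0.74 and 1.27) while MRPL49 was lower. MRPS18C shares 1956 bases with ABRAXAS1, listed under its older name FAM175A at −0.52 in the authors' deposited table. MRPS22 shares 86 bases with the higher COPB2 (0.92 in the authors' deposited table). Overlaps with genes outside the authors' deposited table also touch genes named above. MRPL38 shares 1373 bases with AC087289.3 and MRPL30 shares 564 with AC079447.1, both coding genes on the same strand. MTRF1L shares 1487 bases with the antisense gene AL080276.2, and TFB1M shares 215 with the coding gene TIAM2 on the opposite strand. Without the 24 genes, 20 were higher and 3 lower.

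Head-to-head gene pairs, whose starts lie within 1000 bases on opposite strands, went both together and apart. Such a coding neighbour was found for 20 of the 47 genes, and 12 pairs had both partners in the authors' deposited table, 7 with the same and 5 with opposite directions. TFB2M and CNST (1.32 and 0.54), MRPL21 and the helicase gene IGHMBP2 (0.75 and 0.39), MRPL18 and the chaperonin gene TCP1 (0.43 and 0.46) and MRPL36 and NDUFS6, a subunit of respiratory complex I (0.34 and 0.60), were higher together in the authors' deposited table. MRPL30 and MITD1, whose starts are 21 bases apart, were lower together (−0.69 and −0.39 in the authors' deposited table). In contrast, the authors' deposited table lists MRPL27 at 0.28 beside EME1 at −0.97, with starts 6 bases apart, and MRPL47 at 0.65 beside the complex I gene NDUFB5 at −0.45, with starts 36 bases apart. MRPL41 (0.78) and PNPLA7 (−0.85) also went apart in the authors' deposited table.

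**Figure D3:**
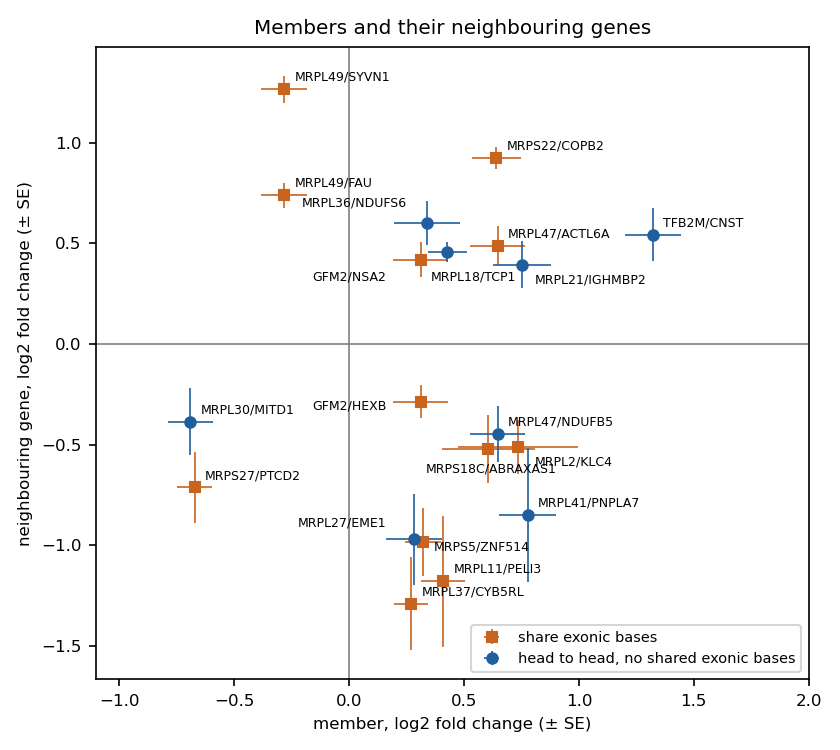
Log2 fold change of a mitoribosome or factor gene (x axis) against that of its neighbouring gene (y axis), both from the authors' deposited table with bars of 1 SE, for pairs that share exonic bases (squares) and pairs that only start head to head (circles). The 2 pairs of MRPL49 lie in the upper left, MRPS27 with PTCD2 and MRPL30 with MITD1 lie in the lower left, and the other pairs lie on the right.

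Promoter letters were read for 43 of the 47 genes (all but MRPL2, MRPL10, MRPL21 and MRPL35) in RefSeq's table of promoters, in 57 windows of 250 bases before and 50 after the start. The NRF1 core GCGCATGC was found on either strand in 8 of these windows and in 3.05% of all 35116 windows of the table. CCGGAAG was in 20 of the 57 (35.1%) and in 10.3% of all windows, AAGATGGCG in 6 (10.5%) and in 1.75%, and TGATGNAAT in 1 (1.75%) and in 0.991%. Among windows of coding genes that are in the authors' deposited table the shares were 4.61%, 17.0%, 3.61% and 0.553% in the same order. GCGCATGC reads nearly the same on both strands and can overlap its own reverse match, as in TFB1M, POLRMT and MRPL17 above.

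The NRF1 core and CCGGAAG were found in both higher and lower genes, and the other motifs in higher genes only, with 7 lower genes read. An NRF1 core was present in 7 of 36 higher and 1 of 7 lower genes of the authors' deposited table, CCGGAAG in 14 of 36 and 4 of 7, AAGATGGCG in 6 of 36 and 0 of 7, and TGATGNAAT in 1 of 36 and 0 of 7. TFB2M at 1.32 and TFB1M at −0.65 in the authors' deposited table both hold an NRF1 core, which begins 15 bases before the start in TFB2M and 132 bases before it in TFB1M, as the sequences above show. MTRF1 and MTRF1L both hold CCGGAAG. By subunit, the NRF1 core was in 4 of 24 large and 1 of 11 small subunit genes, and CCGGAAG in 8 of 24 and 4 of 11. A match describes the letters only and is not a site.

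Mitochondrially encoded genes, whose RNAs these factors serve, were higher where they are in the table. Of the 15 mitochondrially encoded genes listed, 11 (73.3%) are in the authors' deposited table, against 43.6% of all tested genes. All 11 were higher, with a median log2 fold change of 0.48. Their median mean count was 106264 and their median SE 0.04, so small changes pass the threshold. The ribosomal RNA genes stood at 0.85 (SE 0.04) for MT-RNR2, the large ribosomal RNA, and at 0.50 (SE 0.04) for MT-RNR1, the small one, in the authors' deposited table. MT-CO1, a catalytic subunit of cytochrome oxidase, was at 0.56 (SE 0.04), MT-CO3 at 0.17 (SE 0.04) and MT-ND3 of complex I at 0.13 (SE 0.05) by the authors' deposited table. The libraries were made from polyadenylated RNA, so these values cover the polyadenylated part of each transcript.

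Genes of mitochondrial RNA processing and modification in the table were also mostly higher, with single genes that changed by more than 2-fold. Of 36 listed genes, 26 (72.2%) are in the authors' deposited table, 22 higher and 4 lower (median log2 fold change 0.57). Among all tested genes 43.6% are in it, 22.4% as higher and 21.1% as lower. FASTKD5, needed to process messages that no tRNA flanks, stood at 1.72 (SE 0.07, adjusted p 1.29e-118) and YRDC, which makes a modification of tRNA, at 1.62 (SE 0.10) by the authors' deposited table. SUPV3L1, the helicase of the RNA-degrading complex, was at 1.54 (SE 0.08) and KIAA0391, the nuclease subunit of mitochondrial RNase P now called PRORP, at 1.47 (SE 0.15), both by the authors' deposited table. SUPV3L1 and KIAA0391 were named after their values were seen. The lowest were OSGEPL1, which acts after YRDC in the same modification, at −2.06 (SE 0.29) and PTCD2 at −0.71 (SE 0.18) by the authors' deposited table.

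Assembly factors of the mitoribosome were split. Of 25 listed, 12 (48%) are in the authors' deposited table, 6 higher and 6 lower (median log2 fold change −0.0014). The share is near the 43.6% of all tested genes. NGRN (0.97, SE 0.11) and the pseudouridine synthase RPUSD4 (0.74, SE 0.09), which act on the large ribosomal RNA, were highest in the authors' deposited table. MRM1, which methylates the same RNA, was lowest at −1.32 (SE 0.21), followed by YBEY at −0.69 (SE 0.30) by the authors' deposited table. The list also holds TFB1M and MDN1, of which the second acts on cytosolic ribosomes.

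Accessory factors of mitochondrial translation were divided likewise, with 4 higher and 5 lower of the 9 of 18 in the authors' deposited table (median −0.43). That is 50% of the list, against 43.6% of all tested genes. The peptidyl-tRNA hydrolase PTRH2 (0.63, SE 0.12) and the deformylase PDF (0.57, SE 0.24) were highest, and METAP1D (−1.32, SE 0.19) and MTFMT (−0.78, SE 0.19) lowest in the authors' deposited table. MTFMT puts the formyl group on the initiator, which PDF takes off before METAP1D removes the methionine. Mitochondrial tRNA synthetases also split evenly, 6 and 6 of the 12 of 19 (63.2%) in the authors' deposited table (median 0.01). Their range ran from PARS2 at −1.57 (SE 0.31) to GARS at 0.86 (SE 0.07) and VARS2 at 1.10 (SE 0.37) by the authors' deposited table, and GARS and KARS also serve the cytosol.

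Genes of mitochondrial DNA replication and the nucleoid numbered 7 higher and 6 lower of the 13 of 20 in the authors' deposited table (median 0.30). Their share was 65%, against 43.6% of all tested genes. RNASEH1 (0.95, SE 0.08) and the single-strand binding protein SSBP1 (0.66, SE 0.09) were highest, and the nuclease MGME1 (−1.24, SE 0.09) and the thymidine kinase TK2 (−0.81, SE 0.25) lowest in the authors' deposited table. Of 30 import genes 16 (53.3%) are in the authors' deposited table, 14 higher and 2 lower (median 0.38). They were led by the translocase subunit TIMM17A at 1.23 (SE 0.10) and TOMM5 at 0.87 (SE 0.43). CHCHD4 at −0.69 (SE 0.18) and MTX2 at −0.69 (SE 0.10) were lowest. Chaperones and proteases of the matrix and inner membrane included 15 of 24 genes (62.5%) in the authors' deposited table, 12 higher and 3 lower (median 0.58). HSPA9 (0.85, SE 0.05) and HSPE1 (0.72, SE 0.10) were highest, and OMA1 (−0.84, SE 0.28) and DNAJA3 (−0.62, SE 0.07) lowest in the authors' deposited table.

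**Figure D4:**
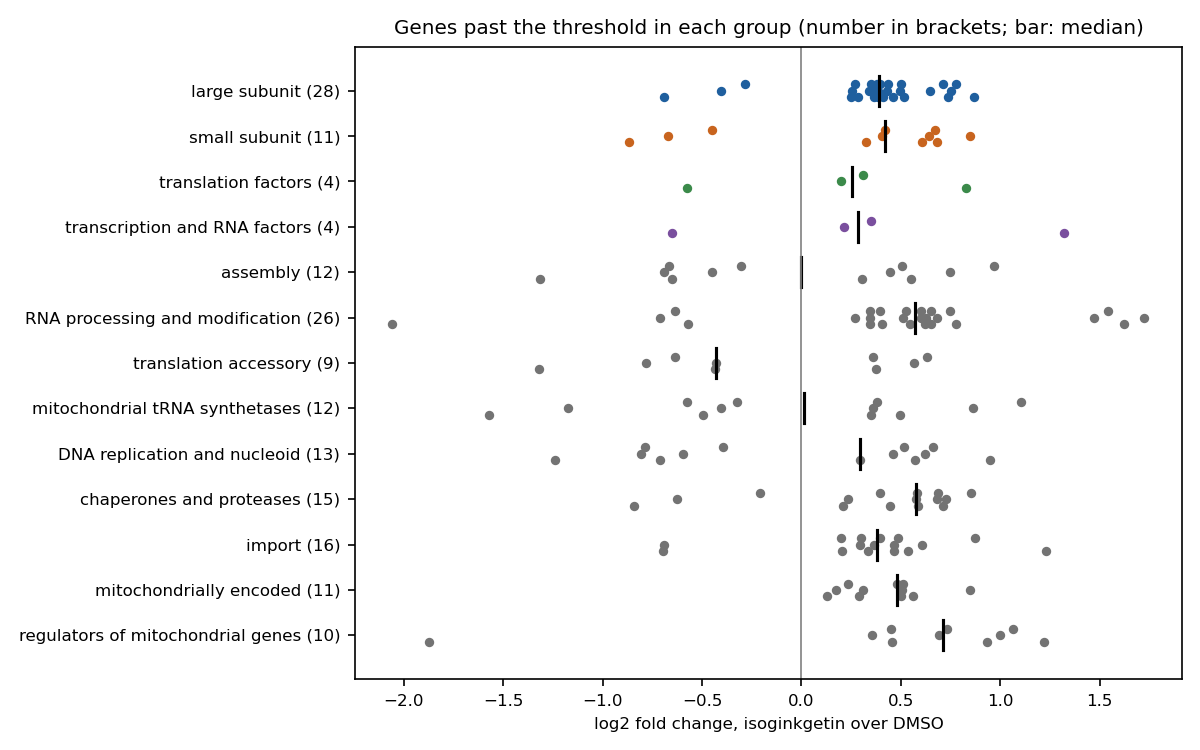
Log2 fold change (x axis) of every gene of the authors' deposited table in the 4 classes of mitoribosome and factor genes (colours) and in 9 further lists (grey), with the median as a bar and the number of genes in brackets. The subunits, import and mitochondrially encoded genes stand mainly on the right, and assembly factors and tRNA synthetases lie on both sides of 0.

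Regulators known to act on nuclear genes of mitochondria included 10 of 14 genes (71.4%) in the authors' deposited table, 9 higher and 1 lower (median log2 fold change 0.71). The stress factors DDIT3 (1.22, SE 0.13) and ATF5 (1.06, SE 0.13) were highest, TFEB, a regulator of lysosomal genes, was lowest (−1.87, SE 0.22) and YY1 stood at 0.36 (SE 0.07) by the authors' deposited table. NRF1 itself and GABPA are outside the table, and GABPB1, the partner of GABPA, was at 0.45 (SE 0.12) by the authors' deposited table. Cytosolic ribosomal proteins, matched by name, were higher in 49 of 49 large and 30 of 31 small subunit genes of the authors' deposited table, with medians of 0.44 and 0.44. Of the 53 and 34 such names in RefSeq, 92.5% and 91.2% are thus in the authors' deposited table. The shares were 57.1% of the large and 37.9% of the small subunit names of the mitoribosome, and 43.6% of all tested genes. Among genes in the table, median mean counts were 12710 and 13078 for the cytosolic subunits, against 842 and 1639 for the mitoribosome. The median SEs were 0.05 and 0.05 against 0.12 and 0.09, and a gene with a smaller SE passes the threshold at a smaller change. None of these shares was tested.

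The antisense transcript MRPL23-AS1 was at −2.16 (SE 0.34, mean count 101) by the authors' deposited table, while MRPL23 is outside it. Of 11 hepatocyte markers 10 are in the authors' deposited table, AFP with a mean normalized count of 31202, and all 10 were lower. Mean normalized counts of these 10 ran from 442 to 157429. Presence in that table needs a change, and a marker outside it may be abundant or absent. Counting markers in it therefore does not check the cell label. Of 11 markers of other cell types (4 leukocyte, 3 endothelial and 4 fibroblast) 3 are in the authors' deposited table, all lower. These were LYZ at −1.08 with a mean normalized count of 15328, PECAM1 at −0.68 with 129 and PDGFRB at −1.98 with 60.2, and the other 8 are outside the authors' deposited table. Their part in the results above was not tested.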

How the data were processed

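Total RNA of 4 HepG2 libraries was selected for polyadenylated RNA and made into libraries without strand, per the labels' protocols. STAR 2.7.0, featureCounts, hg19 and mm10 are named in the submitters' processing notes, with no role for each. The annotation and the handling of shared reads are not given in the labels. The authors deposited 1 table of their own comparison, with the columns of a DESeq2 results table per the file headers. As deposited by the authors, the mean normalized count is a signal averaged over libraries, and fold changes and SEs are log2 values. Each gene has a p-value and an adjusted p-value from the authors. The edgeR fit planned for counts per library could not be run on such a table, and no test was added to the authors' own.

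The number of genes tested, 20024, was recovered from the ratio of adjusted to raw p-values and their ranks, a step checked on simulated data. Among the 47 genes, the size of the fold change in units of SE was a median of 0.981 times the normal deviate of the p-value, and 0.901 for MRPL2, the lowest. Fold changes may therefore be slightly shrunken at low counts, a step no header records. Counts, medians and neighbours were computed with Python 3.11.15, pandas 2.3.3 and numpy 2.4.6. Gene models came from GENCODE 29, and names and promoters from RefSeq GRCh38.p14, used only for names, neighbours and the printed sequences since the build of the table is not stated.

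The genes and lists were chosen with earlier results of these data known. Names in the text follow a rule: the 4 highest and 4 lowest of each class, with every other member by its fold change, and the 2 highest and 2 lowest of each further list. One gene that this rule names among the tRNA synthetases is not reported here. Genes named for their role (mitochondrially encoded genes, regulators, neighbours and markers) come in addition and were chosen after their values were seen.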

Additional observations from a re-analysis of the deposited data

How the results depend on the processing

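No paired analysis was possible because the table holds no value per library, and for the same reason no replicate could be left out and neither edgeR nor DESeq2 was run. All alternatives use the authors' deposited values. The filter at a mean count of 100 could remove none of the 47 genes, whose lowest mean count is 141, so it tests nothing. Placement of proteins by structure moved only MRPS30 and added AURKAIP1. It left each count of higher and lower genes within 1.5 times its value. Stricter thresholds lower the counts by construction. In all, 34 genes were higher and 6 lower at an adjusted p under 0.01, 25 and 4 at 0.001, 15 and 3 with Bonferroni, and 13 and 4 at 1.5-fold. For the large subunit these were 14 higher at 0.001, 7 and 1 with Bonferroni, and 6 and 1 at 1.5-fold. For the small subunit 1 was lower at 0.001, 5 and 1 were left with Bonferroni, and 5 were higher at 1.5-fold. Of the factors 1 was lower at 0.001, 3 and 1 were left with Bonferroni, and 2 and 1 at 1.5-fold. Leaving out the 24 genes with shared exonic bases, an alternative chosen after seeing the data, left 20 and 3 in all, 13 and 1 large, 4 and 1 small subunit genes and 3 and 1 factors. The median log2 fold change of the large subunit became 0.57 with Bonferroni, 0.74 at 1.5-fold and 0.18 when centred on the table's median. That of the small subunit became 0.51 at 0.01, 0.53 at 0.001, 0.65 with Bonferroni, 0.64 at 1.5-fold, 0.21 when centred and 0.67 without shared bases. Centring moved TUFM to −0.0150 (SE 0.05) and POLRMT to −0.000311 (SE 0.07), so that 4 factors were lower, these 2 by less than their SEs. The order of the subunit medians turned only at 1.5-fold, among the settings run. The depth per library is unknown.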
